A study of Mus musculus with 8 samples.

Results

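The transcripts of 10 genes of the machinery that moves a cell from G1 into S phase were measured in a mouse malignant peripheral nerve sheath tumor (MPNST) model, in which the MET kinase inhibitor capmatinib was given to a line with intact *Trp53* and to a line in which *Trp53* had been targeted. They are the D cyclins *Ccnd1*, *Ccnd2* and *Ccnd3*, the kinases *Cdk4* and *Cdk6*, the retinoblastoma gene *Rb1*, the transcription factors *E2f1* and *E2f7*, and the E cyclins *Ccne1* and *Ccne2*. The members were taken by gene symbol from a table of 50600 genes. A filter of 10 or more counts in 2 or more of the 8 libraries left 14497 genes, among them all 10 members.

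The NF1-MET line was isolated from an MPNST with *Met* amplification that arose in a mouse with Nf1 fl/ko alleles, a MET transgene behind a stop cassette (lox-stop-loxMET tg/+) and the driver Plp-creERT tg/+, in which the *Plp* promoter directs inducible Cre to Schwann cells and related glia. The NF1-MET;sgP53 line, here also the sgP53 line, was made from NF1-MET cells. These received Cas9 and a guide against *Trp53* on a lentivirus and were selected with puromycin, so the line carries the same *Nf1*, *MET* and Cre alleles. Whether it was kept as a pool or cloned is not given in the sources used here. Each line was treated with vehicle (DMSO) or 100 nM capmatinib for 24 h, and each of the 4 groups had 2 replicate libraries. Each genotype was 1 line, so p53 loss cannot be told apart from other differences between the lines. The table columns of the NF1-MET libraries contain the letters EV, and an empty-vector control is part of the study, so these cells may themselves have been transduced. The replicates were wells treated in duplicate, and p-values measure the spread between such libraries.

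In G1, D cyclins bind CDK4 and CDK6, and the active kinases phosphorylate the retinoblastoma protein, which in its unphosphorylated form holds E2F transcription factors at their target genes. Once released, activating E2Fs such as E2F1 switch on genes of DNA replication and the E cyclins, which with CDK2 phosphorylate the retinoblastoma protein further. E2F7 is an atypical E2F that represses the same targets later in S phase and is itself an E2F target. Growth factor receptors such as MET feed this pathway through RAS and ERK, of which *Ccnd1* is a well-known target, and neurofibromin, the product of *Nf1*, restrains RAS.

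To show the regulatory sequence of members of this pathway, promoter windows were read from RefSeq on GRCm38.p6, from 250 bases before to 50 bases after the start of transcription. Windows were found for 6 of the 10 members (*Ccnd3*, *Ccne1*, *Cdk4*, *Cdk6*, *E2f1* and *E2f7*). The 3 given here belong to genes that fell with capmatinib in both lines and start within 44 bp of the 5′ end of the annotated gene. They are written 5′ to 3′ on the strand of the gene. Capitals mark E2F octamers and GC boxes, where neighbouring GC boxes can overlap.
E2f7 promoter, chr10:110745189-110745488, plus strand: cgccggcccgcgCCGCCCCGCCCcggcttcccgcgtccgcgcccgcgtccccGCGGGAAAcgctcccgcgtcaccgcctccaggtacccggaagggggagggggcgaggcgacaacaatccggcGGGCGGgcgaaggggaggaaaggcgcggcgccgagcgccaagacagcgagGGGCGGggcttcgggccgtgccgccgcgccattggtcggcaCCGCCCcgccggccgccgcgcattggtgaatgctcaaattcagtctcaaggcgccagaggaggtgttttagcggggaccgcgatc
Ccne1 promoter, chr7:38107441-38107740, minus strand: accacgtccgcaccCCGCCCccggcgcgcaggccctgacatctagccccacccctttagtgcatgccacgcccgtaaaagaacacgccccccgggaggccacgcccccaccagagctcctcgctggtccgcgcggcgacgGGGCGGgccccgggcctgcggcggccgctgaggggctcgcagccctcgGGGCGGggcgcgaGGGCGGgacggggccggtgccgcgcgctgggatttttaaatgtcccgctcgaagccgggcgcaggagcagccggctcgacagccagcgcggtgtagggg
Cdk4 promoter, chr10:127063285-127063584, plus strand: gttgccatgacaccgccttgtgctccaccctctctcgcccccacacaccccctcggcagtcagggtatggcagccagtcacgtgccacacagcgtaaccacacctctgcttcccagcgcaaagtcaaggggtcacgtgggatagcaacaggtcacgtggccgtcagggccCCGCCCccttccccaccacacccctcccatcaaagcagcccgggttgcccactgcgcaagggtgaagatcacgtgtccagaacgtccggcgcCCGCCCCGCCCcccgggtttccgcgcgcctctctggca
The E2F octamer was searched as TTTCCCGC, TTTCGCGC, TTTGCCGC or TTTGGCGC on both strands. It was present in the window of *E2f7*, where GCGGGAAA on the gene strand lies at positions -198 to -191 from the start, and in none of the other member windows, of which those of *E2f1* and *Cdk6* start 466 and 2408 bp inside the annotated gene. A further window of *Ccnd3* starts 88416 bp inside its annotated gene. Over all 32851 promoter windows, 744 (2.26%) held such an octamer. The GC box GGGCGG or its complement occurred 5 times in the window of *E2f7*, 4 times in that of *Ccne1* and 3 times in that of *Cdk4*, and was found in 35.7% of all windows. The AP-1 motif TGANTCA was in none of the 7 member windows and in 7.81% of all windows. A match is a string of letters in a window and not a measured binding site.

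The libraries held between 30116810 and 42781371 counts, and levels are given as counts relative to library size (CPM) after scaling with edgeR's TMM factors (0.898 to 1.1). *Gm42418*, which overlaps ribosomal RNA sequence, took 1.11% to 13.1% of the counts, unevenly between replicates. The targeted gene *Trp53* was at 126 to 193 CPM in the 4 NF1-MET libraries and at 68.0 to 100.1 CPM in the 4 sgP53 libraries, in the direction of the labels, although a guide need not lower the transcript and *Trp53* was also lower with capmatinib in each line. Of the 10 Schwann cell markers examined, 5 passed the filter on counts, and the summed level of all 10 was 21.4 to 24.0 CPM with vehicle, most of it *Gap43*, and 6.94 to 7.75 CPM with capmatinib. *Sox10*, a defining Schwann cell factor, had at most 7 counts in a library. Summed immune markers reached at most 2.12 CPM, endothelial markers 0.358 CPM and epithelial markers 0.727 CPM, while fibroblast markers, mostly *Col1a1*, summed to between 3009 and 3979 CPM with vehicle and between 15989 and 16297 CPM with capmatinib. Among the fibroblast markers *Pdgfrb* also rose with capmatinib in each line, whereas *Pdgfra* fell in each. *Dcn* stayed at or below 1.63 CPM and *Lum* had at most 1 count in a library. The part of these marker shifts in the results below was not tested.

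Capmatinib lowered 6 of the 10 genes in NF1-MET cells (*Ccnd1*, *Cdk4*, *Ccne1*, *Ccne2*, *E2f1* and *E2f7*) and raised *Ccnd2* and *Rb1*. In the sgP53 line the same 6 genes fell, *Cdk6* fell as well, and *Ccnd2* and *Rb1* rose. *Ccnd3* was not called in either line. Genes were called at an adjusted p under 0.05 from edgeR's quasi-likelihood test over all genes past the filter. By this rule 70.2% of all genes were called in NF1-MET (35.5% higher, 34.7% lower) and 67.6% in the sgP53 line (34.2% higher, 33.4% lower). The shares of 8 and 9 members called, of 10, stand against that background, with 6 and 7 of them lower. The median log2 fold change of the members was -0.55 in NF1-MET and -0.61 in the sgP53 line, beside 0.00 for all genes in each line. In RNA from a whole culture, less transcript in every cell and fewer cells holding the transcript cannot be told apart.

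**Figure D1:**
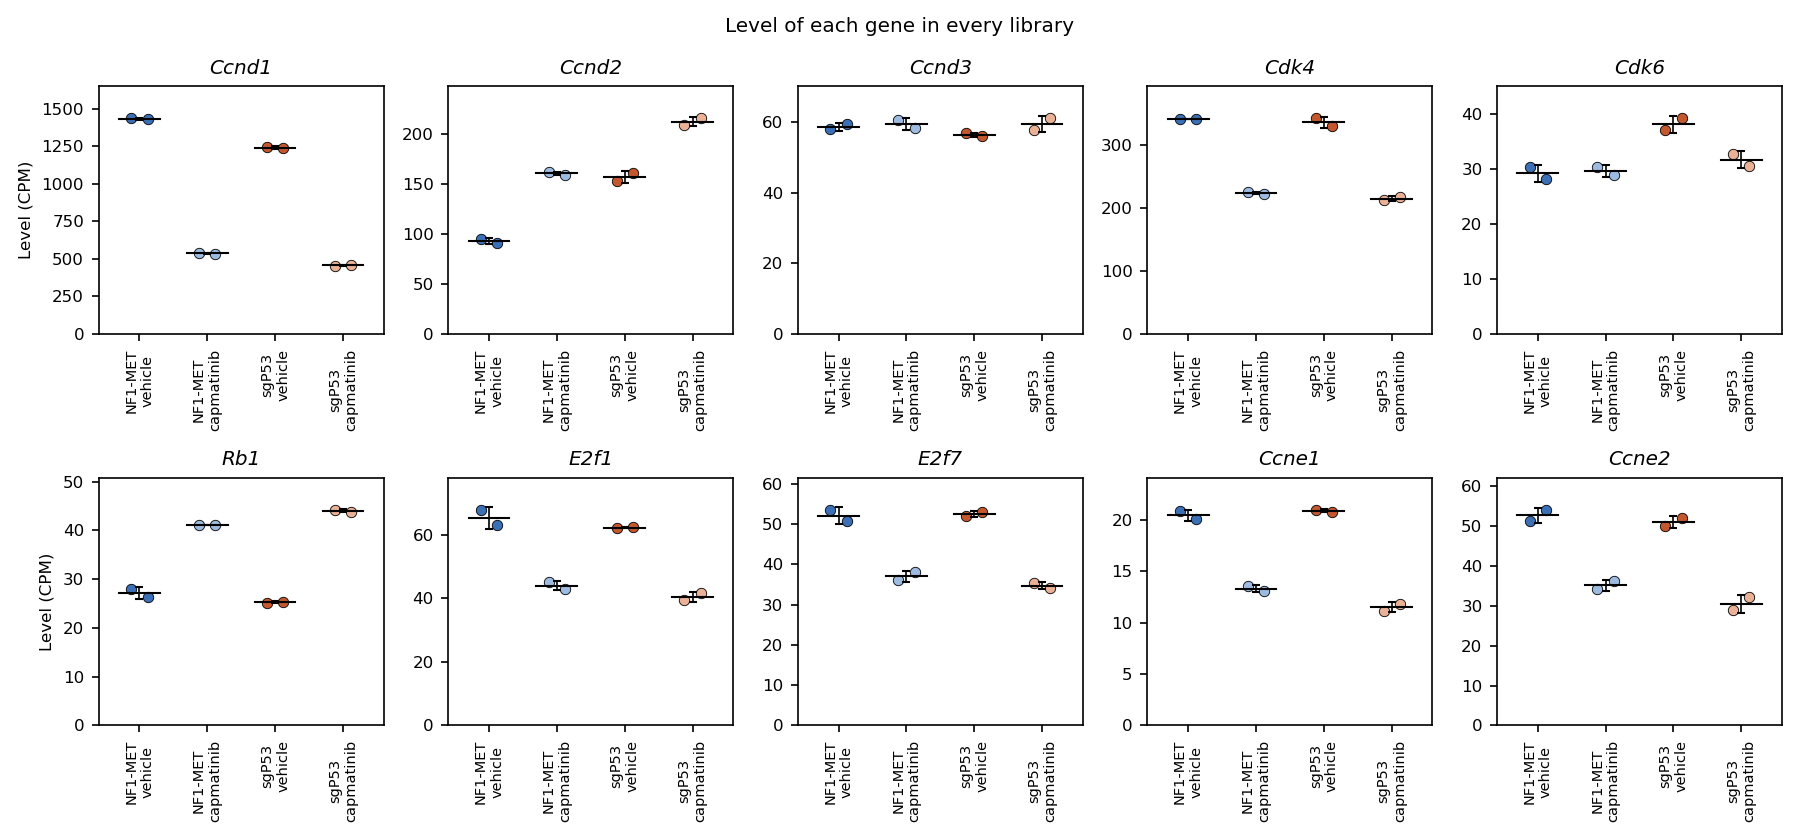
Level of each of the 10 genes (CPM, linear axis from 0) in the 8 libraries, grouped by line and treatment, where sgP53 is NF1-MET;sgP53. Points are libraries, and bars give the mean and SD of 2 libraries. *Ccnd1*, *Cdk4*, *E2f1*, *E2f7*, *Ccne1* and *Ccne2* lie lower with capmatinib in each line, and *Ccnd2* and *Rb1* lie higher. *Ccnd3* stayed between 56.0 and 61.1 CPM throughout.

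The D cyclins showed a different response each. *Ccnd1* (ENSMUSG00000070348, mm10 chromosome 7, 144929931 to 144939925, minus strand) encodes cyclin D1. In NF1-MET cells its level was 1435 and 1429 CPM with vehicle and 541 and 535 CPM with capmatinib. *Ccnd1* in the sgP53 line was 1247 and 1235 CPM with vehicle and 454 and 458 CPM with capmatinib. All 4 capmatinib libraries lay far below all 4 vehicle libraries, and within each treatment the sgP53 libraries were the lower ones. Its log2 fold change under the drug was -1.43 in NF1-MET (SE 0.0196, adjusted p = 2e-33, edgeR) and -1.44 in the sgP53 line (SE 0.0240, adjusted p = 1.64e-22), which is a fall of 2.69-fold and 2.72-fold. It was the member with the largest change in each line. The 2 responses differed by -0.03 on the log2 scale, with a 95% interval of -0.09 to 0.03 (interaction, adjusted p = 0.597).

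*Ccnd2* (ENSMUSG00000000184, chromosome 6, 127125162 to 127152193, minus strand), which encodes cyclin D2, moved the opposite way. Its level in NF1-MET was 95.1 and 90.6 CPM with vehicle and 161 and 159 CPM with capmatinib. *Ccnd2* in the sgP53 line was 152 and 161 CPM with vehicle and 208 and 215 CPM with capmatinib. The vehicle libraries of the sgP53 line thus lay at the level that NF1-MET reached with the drug, and the groups of each line did not overlap. The rise was 1.71-fold in NF1-MET (log2 fold change 0.77, SE 0.0301, adjusted p = 6.97e-21, edgeR) and 1.35-fold in the sgP53 line (0.43, SE 0.0340, adjusted p = 1.44e-10).

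*Ccnd3* (ENSMUSG00000034165, chromosome 17, 47505051 to 47599691, plus strand), the gene of cyclin D3, was at 58.0 and 59.6 CPM in the vehicle libraries of NF1-MET and 60.8 and 58.2 CPM in its capmatinib libraries. *Ccnd3* in the sgP53 line was at 56.8 and 56.0 CPM with vehicle and 57.8 and 61.1 CPM with capmatinib. The groups overlapped in NF1-MET and lay side by side in the sgP53 line. Its log2 fold change was -0.00 in NF1-MET, with a 95% interval of -0.08 to 0.08, and 0.08 in the sgP53 line, with an interval of -0.00 to 0.16 (adjusted p = 0.968 and 0.0824, edgeR). Scaled to library totals without TMM factors, the value in NF1-MET was -0.19 (adjusted p = 0.00597), at which the median of all genes was also shifted by -0.18.

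Levels of different genes can be compared per length of exon (CPM per kb). On that scale *Ccnd1* was the most abundant of the 10 genes in every group, with 304 CPM per kb in NF1-MET with vehicle, and *Cdk4* came next. The sum of the 3 D cyclins went from 321 ± 1.25 to 138 ± 1.22 CPM per kb in NF1-MET (SD, n = 2) and from 287 ± 1.30 to 126 ± 1.48 CPM per kb in the sgP53 line, 2.32-fold and 2.27-fold lower. The make-up of this sum differed between the groups as well. *Ccnd1* held 94.8% ± 0.0462 of it in vehicle-treated NF1-MET and 82.7% ± 0.125 under capmatinib, and 91.9% ± 0.242 and 76.8% ± 0.336 in the sgP53 line (SD, n = 2). The share of *Ccnd2* went from 3.08% ± 0.0942 to 12.3% ± 0.0217 in NF1-MET and from 5.81% ± 0.255 to 17.8% ± 0.191 in the sgP53 line. The level of *Ccnd1* per kb was 30.8 times that of *Ccnd2* in NF1-MET with vehicle and 4.30 times in the sgP53 line with capmatinib. *Ccnd3* stayed the least abundant D cyclin per kb, at 2.09% to 5.37% of the total. Within a line, with 2 libraries a group, an exact permutation test of such a share cannot reach 0.05. Over both lines no test of the shares was run, so they are descriptions. None of the groups overlapped in the shares of *Ccnd1* and *Ccnd2*.

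**Figure D2:**
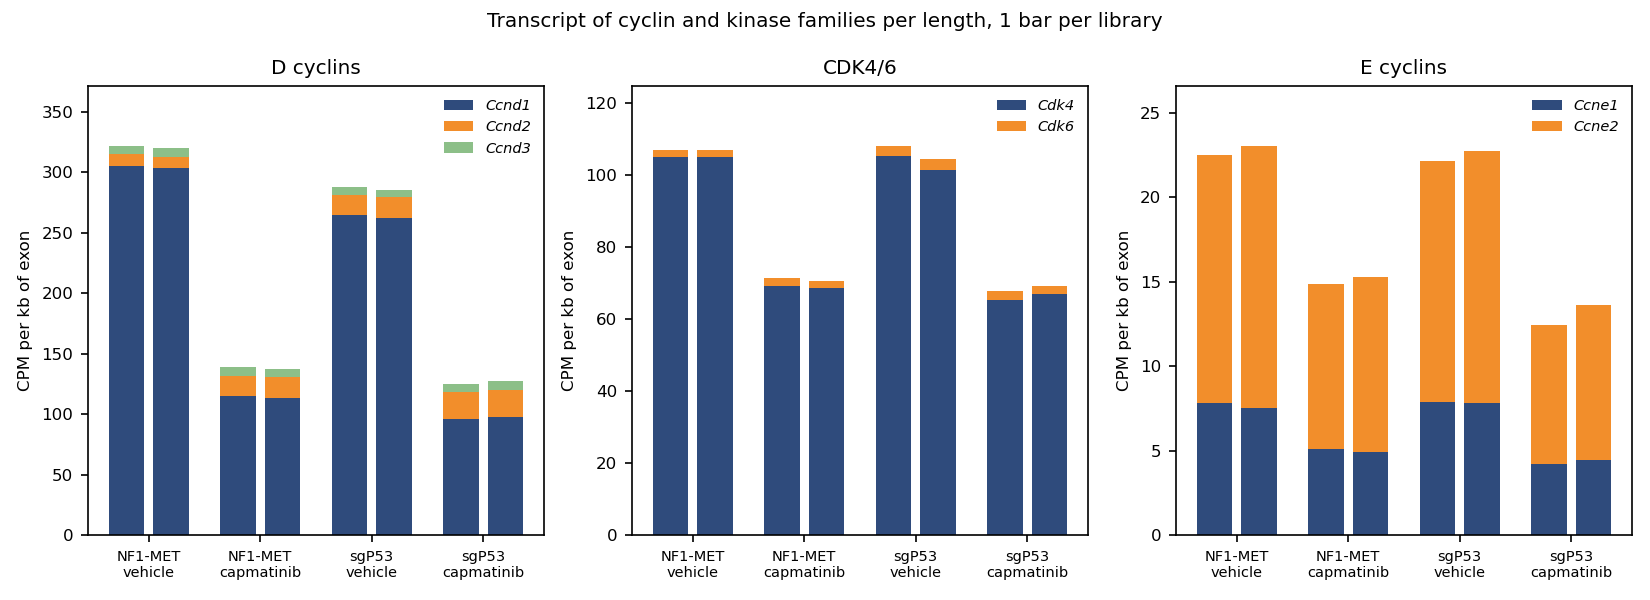
Stacked levels of the D cyclins, *Cdk4* and *Cdk6*, and the E cyclins in CPM per kb of exon (linear axes from 0), with 1 bar for each of the 8 libraries, where sgP53 is NF1-MET;sgP53. *Ccnd1* makes up 76.8% to 94.8% of the D cyclin transcript and *Cdk4* 96.7% to 98.0% of the CDK4/6 transcript as group means, and the split of the E cyclins moves little.

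The kinases that D cyclins activate differed in their response. *Cdk4* (ENSMUSG00000006728, chromosome 10, 127063534 to 127067920, plus strand) was at 341 and 342 CPM in the vehicle libraries of NF1-MET and at 225 and 223 CPM in its capmatinib libraries. *Cdk4* in the sgP53 line was at 343 and 330 CPM with vehicle and at 212 and 218 CPM with capmatinib. The vehicle libraries of the 2 lines overlapped, and all capmatinib libraries lay below them. *Cdk4* fell by 1.54-fold in NF1-MET (log2 fold change -0.62, SE 0.0236, adjusted p = 3.06e-21, edgeR) and by 1.56-fold in the sgP53 line (-0.64, SE 0.0312, adjusted p = 3.31e-14).

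*Cdk6* (ENSMUSG00000040274, chromosome 5, 3341485 to 3531008, plus strand) was at 30.4 and 28.2 CPM in the vehicle libraries of NF1-MET and at 30.5 and 28.9 CPM in its capmatinib libraries, so that these groups overlapped. *Cdk6* in the sgP53 line was at 37.1 and 39.3 CPM with vehicle and at 32.8 and 30.7 CPM with capmatinib. The vehicle libraries of the sgP53 line were the highest of the 8. The log2 fold change was 0.00 in NF1-MET, with a 95% interval of -0.11 to 0.11 (adjusted p = 0.994, edgeR), and -0.27 in the sgP53 line (SE 0.0507, adjusted p = 7.02e-05). With library totals in place of TMM factors, the value of *Cdk6* in NF1-MET was -0.18 (adjusted p = 0.0200), the same as the shift of the median of all genes. Per kb, *Cdk6* was the least abundant member in every group, and *Cdk4* exceeded it 50.2-fold in NF1-MET with vehicle and 29.2-fold in the sgP53 line with capmatinib.

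*Rb1* (ENSMUSG00000022105, chromosome 14, 73183673 to 73325822, minus strand), the gene of the retinoblastoma protein that holds E2F in check, rose. It was at 27.99 and 26.4 CPM in the vehicle libraries of NF1-MET and at 41.1 and 41.1 CPM in its capmatinib libraries. *Rb1* in the sgP53 line was at 25.2 and 25.4 CPM with vehicle and at 44.2 and 43.8 CPM with capmatinib. All capmatinib libraries lay above all vehicle libraries, and the sgP53 libraries were the lowest with vehicle and the highest with the drug. The rise was 1.496-fold in NF1-MET (log2 fold change 0.58, SE 0.0501, adjusted p = 5.13e-12, edgeR) and 1.74-fold in the sgP53 line (0.80, SE 0.0476, adjusted p = 1.31e-12). Per kb, *Ccnd1* exceeded *Rb1* 67.3-fold in vehicle-treated NF1-MET and 16.7-fold under capmatinib, and 62.7-fold and 13.2-fold in the sgP53 line.

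The E2F genes fell together. *E2f1* (ENSMUSG00000027490, chromosome 2, 154559407 to 154569892, minus strand), an activating E2F, was at 67.8 and 62.9 CPM in the vehicle libraries of NF1-MET and at 45.0 and 43.01 CPM in its capmatinib libraries. *E2f1* in the sgP53 line was at 62.1 and 62.4 CPM with vehicle and at 39.3 and 41.5 CPM with capmatinib. Vehicle and capmatinib libraries were separate in each line, and the fall was 1.505-fold (log2 fold change -0.59, SE 0.0425, adjusted p = 6.71e-14, edgeR) and 1.54-fold (-0.62, SE 0.0402, adjusted p = 5.24e-12).

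*E2f7* (ENSMUSG00000020185, chromosome 10, 110745439 to 110787384, plus strand), the member whose promoter window held the E2F octamer, was at 53.6 and 50.7 CPM in the vehicle libraries of NF1-MET and at 36.1 and 38.0 CPM in its capmatinib libraries. *E2f7* in the sgP53 line was at 52.0 and 53.1 CPM with vehicle and at 35.3 and 34.2 CPM with capmatinib. Its fall was 1.42-fold in NF1-MET (log2 fold change -0.50, SE 0.0452, adjusted p = 1.35e-11, edgeR) and 1.51-fold in the sgP53 line (-0.60, SE 0.0426, adjusted p = 2.98e-11). Among the 6 members that fell in both lines, *E2f7* had the smallest change.

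The E cyclins, which activate CDK2 at the G1/S boundary, also fell. *Ccne1* (ENSMUSG00000002068, chromosome 7, 38097984 to 38107534, minus strand) was at 20.8 and 20.1 CPM in the vehicle libraries of NF1-MET and at 13.6 and 13.1 CPM in its capmatinib libraries. *Ccne1* in the sgP53 line was at 20.98 and 20.8 CPM with vehicle and at 11.1 and 11.9 CPM with capmatinib. The log2 fold change was -0.64 in NF1-MET (SE 0.0686, adjusted p = 7.79e-10, edgeR) and -0.86 in the sgP53 line (SE 0.0712, adjusted p = 3.9e-10), and the difference of -0.24 between the lines had a 95% interval of -0.44 to -0.04 and did not pass adjustment (interaction, adjusted p = 0.127).

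*Ccne2* (ENSMUSG00000028212, chromosome 4, 11191351 to 11204779, plus strand) was at 51.4 and 54.1 CPM in the vehicle libraries of NF1-MET and at 34.2 and 36.2 CPM in its capmatinib libraries. *Ccne2* in the sgP53 line was at 49.98 and 52.2 CPM with vehicle and at 28.9 and 32.1 CPM with capmatinib, the lowest values of the 8 libraries. The log2 fold change was -0.60 in NF1-MET (SE 0.0457, adjusted p = 2.8e-13, edgeR) and -0.74 in the sgP53 line (SE 0.0498, adjusted p = 1.03e-11). *Ccne2* made up 65.1% to 66.9% of the summed E cyclin level per kb in the 4 groups. With capmatinib that sum was 1.51-fold lower in NF1-MET and 1.72-fold lower in the sgP53 line.

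**Figure D3:**
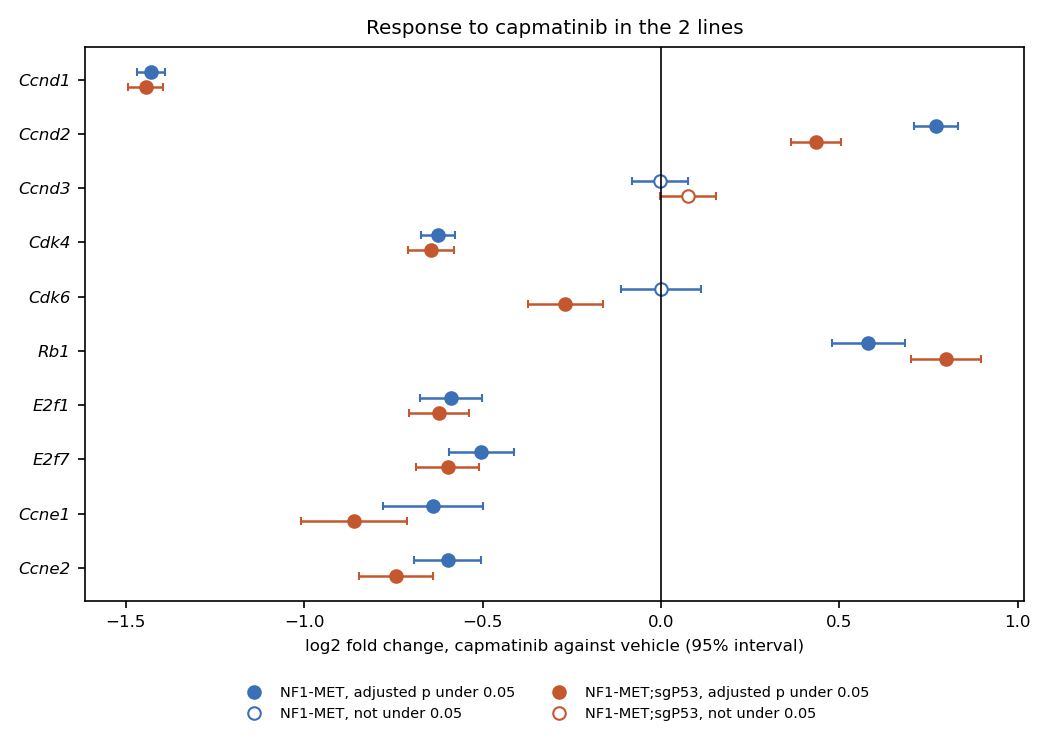
Log2 fold change with capmatinib of the 10 genes in each line (NF1-MET, NF1-MET;sgP53), with 95% intervals from edgeR's quasi-likelihood fit and 2 libraries per group. Filled points have an adjusted p under 0.05 over all genes tested. *Ccnd1* is lowest in each line at -1.43 and -1.44, *Ccnd2* and *Rb1* lie above 0, and the intervals of *Ccnd2*, *Cdk6* and *Rb1* do not overlap between the lines.

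Several members share exon sequence with a gene on the opposite strand, and whether counting was by strand is not given in the sources used here. The overlap covers 23.4% of the exon length of *Ccnd1* (with *LTO1*, which had at most 518 counts in a library), 19.7% of *Cdk4* (with *Tspan31*), 17.4% of *Ccne2* (with *Ints8*), and 8.11% and 6.78% of *Rb1* (with *Rcbtb2* and *Lpar6*). For *Ccnd3* the overlap with *Bysl* covers 4.11%, and its longest near-identical copy, *Ccnd3-ps*, had at most 3 counts in a library. Stretches of 100 bp or more at 95% identity or above were shared by *Ccnd3* with 64 other genes and by *Cdk6* with 87, some of them abundant (*Nedd4*, with up to 130927 counts in a library, and *Malat1*, with up to 65779), so the values of *Ccnd3* and *Cdk6* are uncertain where the counting could split such reads. *E2f1* and *Ccne1* had no such overlap.

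Other genes of the pathway were described by lists. Of 25 partners of the members, 24 were tested and *Ccna1* was not, as it did not pass the filter. With capmatinib 18 partners fell and 3 rose in NF1-MET (median log2 fold change -0.48), and 18 fell and 4 rose in the sgP53 line (median -0.55), of which 17 fell in both lines. The largest falls were those of 2 further E2F genes. *E2f8*, the other atypical repressor, went from 145 and 141 CPM to 33.4 and 33.6 CPM in NF1-MET, a log2 fold change of -2.11 (SE 0.0347, adjusted p = 3.26e-31, edgeR), and by -2.06 in the sgP53 line (SE 0.0370, adjusted p = 6.37e-22). *E2f2*, an activator, fell from 11.02 and 10.6 CPM to 2.39 and 3.02 CPM in NF1-MET (-1.99, SE 0.120) and by a log2 fold change of -2.16 in the sgP53 line (SE 0.127). Both fell further than *E2f1* and *E2f7*. The next largest were *Lin9*, of the DREAM and MuvB complexes, in NF1-MET (-0.84, SE 0.0633) and *Skp2*, which marks p27 for degradation, in the sgP53 line (-0.94, SE 0.0444).

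The partners that rose in both lines were *Cdk7* and *Mnat1*, subunits of the CDK-activating kinase, and *Rbl2*, the pocket protein p130, with *Lin52* in the sgP53 line as well. *Ccnh*, the gene of the cyclin subunit of that kinase, fell in both lines, by -0.17 in NF1-MET and -0.24 in the sgP53 line. These partners were named after their values were seen. The rises were small, between 0.16 and 0.40 in NF1-MET, and with library totals in place of TMM factors 1 partner was called higher in NF1-MET and 0 in the sgP53 line. *Rb1* kept its call under that scaling, at 0.39 in NF1-MET and 0.67 in the sgP53 line.

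Of the 7 CDK inhibitors, *Cdkn1b* (p27) rose and *Cdkn1a* (p21) fell in both lines. *Cdkn1b* went from 44.3 and 43.9 CPM to 94.4 and 94.7 CPM in NF1-MET, a log2 fold change of 1.08 (SE 0.0356, adjusted p = 6.73e-23, edgeR), and from 47.9 and 50.1 CPM to 103 and 102 CPM in the sgP53 line (1.06, SE 0.0346, adjusted p = 3.01e-17). *Cdkn1a*, a p53 target, fell from 92.9 and 87.2 CPM to 54.4 and 55.0 CPM in NF1-MET (-0.73, SE 0.0367) and from 29.5 and 27.1 CPM to 13.4 and 14.8 CPM in the sgP53 line (-1.001, SE 0.0684). In all, 2 inhibitors were called higher and 3 lower in NF1-MET, and 4 higher and 2 lower in the sgP53 line. *Cdkn2a* and *Cdkn2b*, of the INK4 family that binds CDK4 and CDK6, had opposite calls in the 2 lines, which was noticed after their values were seen, with log2 fold changes of -0.34 and -0.16 in NF1-MET and 0.27 and 0.31 in the sgP53 line. With library totals 1 inhibitor was called higher in each line and 5 lower in NF1-MET. The inhibitors called higher in NF1-MET were 1 by DESeq2's Wald test and without its vehicle replicate 2 or capmatinib replicate 1. Those called lower in the sgP53 line were 1 by the Wald test, with no filter, with the stricter filter and without any 1 of its 4 libraries. The study describes a spontaneous deletion of *Cdkn2a* in the NF1-MET line. The table nonetheless held 267 to 431 counts for this gene in every library, and a count per gene does not show from which exons they came.

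Of 25 E2F targets of the G1/S step, 25 fell with capmatinib in NF1-MET and 25 in the sgP53 line, with a median log2 fold change of -0.89 and -0.98. *Mcm7*, a subunit of the replicative helicase, fell from 186 and 193 CPM to 78.3 and 85.9 CPM in NF1-MET (-1.22, SE 0.0336, adjusted p = 5.17e-25, edgeR) and by a log2 fold change of -1.29 in the sgP53 line (SE 0.0353, adjusted p = 1.37e-18). *Ung*, which removes uracil from DNA, fell from 12.2 and 13.8 CPM to 5.28 and 6.77 CPM in NF1-MET (-1.10, SE 0.102) and from 15.8 and 15.1 CPM to 5.45 and 4.66 CPM in the sgP53 line (-1.61, SE 0.0936). *Pola1* of DNA polymerase alpha (-1.06 in NF1-MET) and *Mcm3* (-1.20 in the sgP53 line) followed. Of 12 mitosis genes, 12 fell in each line, with medians of -0.79 and -0.81. *Plk1* (-0.96), *Bub1* (-0.90) and *Aurka* (-0.89) led in NF1-MET, and *Aurkb* (-0.90), *Bub1* (-0.86) and *Cdk1* (-0.85) in the sgP53 line. The counts of both lists were the same under each alternative processing tried.

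**Figure D4:**
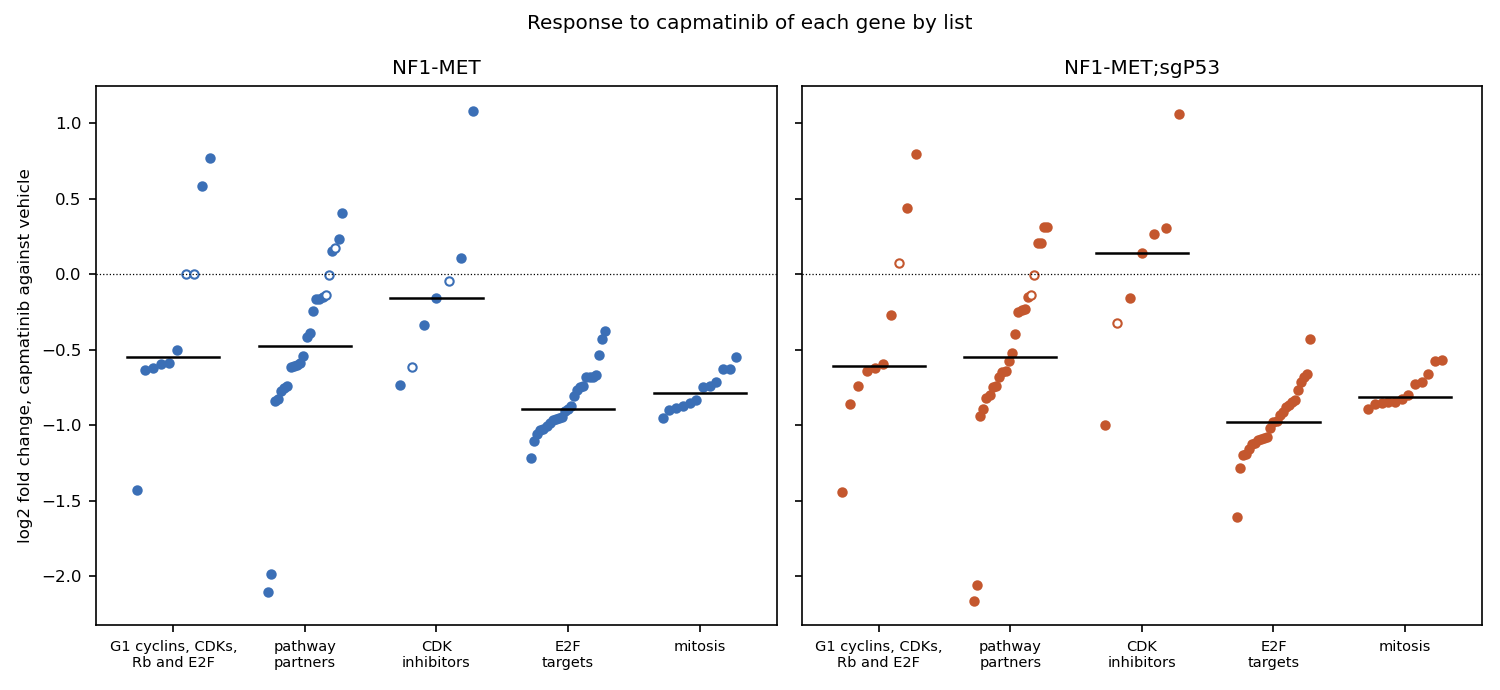
Log2 fold change with capmatinib of each tested gene, by list, in NF1-MET (left) and NF1-MET;sgP53 (right). Filled points have an adjusted p under 0.05 from edgeR over all genes tested, and lines mark the list median. The 25 E2F targets and 12 mitosis genes all lie below 0, whereas the CDK inhibitors scatter around 0, with *Cdkn1b* highest in each line.

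Without the drug, the lines differed in 3 of the 10 genes. The sgP53 line had more *Ccnd2* and *Cdk6* and less *Ccnd1*. Over all genes, 23.2% were called in this comparison (10.9% higher, 12.3% lower), so 3 of 10 is near the background of the edgeR test. In place of 3355 genes, 1933 were called by DESeq2's Wald test and 2023 with library totals. *Ccnd2* was 1.67-fold higher (log2 fold change 0.74, SE 0.0347, adjusted p = 3.13e-12, edgeR), *Cdk6* was 1.29-fold higher (0.37, SE 0.0519, adjusted p = 2e-05), and *Ccnd1* was 1.17-fold lower (-0.23, SE 0.0189, adjusted p = 1.78e-08). The difference in *Ccnd1* was -0.17 with library totals and was then not called (adjusted p = 0.106). For the other 7 members the log2 difference lay between -0.12 and 0.01. *E2f7* (-0.01, 95% interval -0.09 to 0.08) and *Ccne1* (0.01, -0.11 to 0.14) were closest to 0.

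With capmatinib, *Ccnd2* was still higher in the sgP53 line, by 1.32-fold (log2 fold change 0.40, SE 0.0307, adjusted p = 5.37e-08, edgeR), and *Ccnd1* lower by 1.18-fold (-0.24, SE 0.0249, adjusted p = 2.68e-06). *Ccne2* was called lower as well (-0.21, SE 0.0554, adjusted p = 0.0195). The background was 12.3% called (5.94% higher, 6.34% lower). In place of 1778 genes, 870 were called by DESeq2's Wald test, 666 with library totals and 1070 with no filter. The difference in *Cdk6* was 0.10 with a 95% interval of -0.01 to 0.21 and was not called (adjusted p = 0.274). With library totals neither *Ccnd1* (-0.12, adjusted p = 0.510) nor *Ccne2* (-0.09, adjusted p = 0.665) was called, while *Ccnd2* was. *Ccne2* was also not called without NF1-MET capmatinib replicate 2 (-0.16, adjusted p = 0.107) or without sgP53 capmatinib replicate 1 (-0.13, adjusted p = 0.161), by DESeq2's Wald test (-0.20, adjusted p = 0.155) or with no filter (-0.21, adjusted p = 0.0950).

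**Figure D5:**
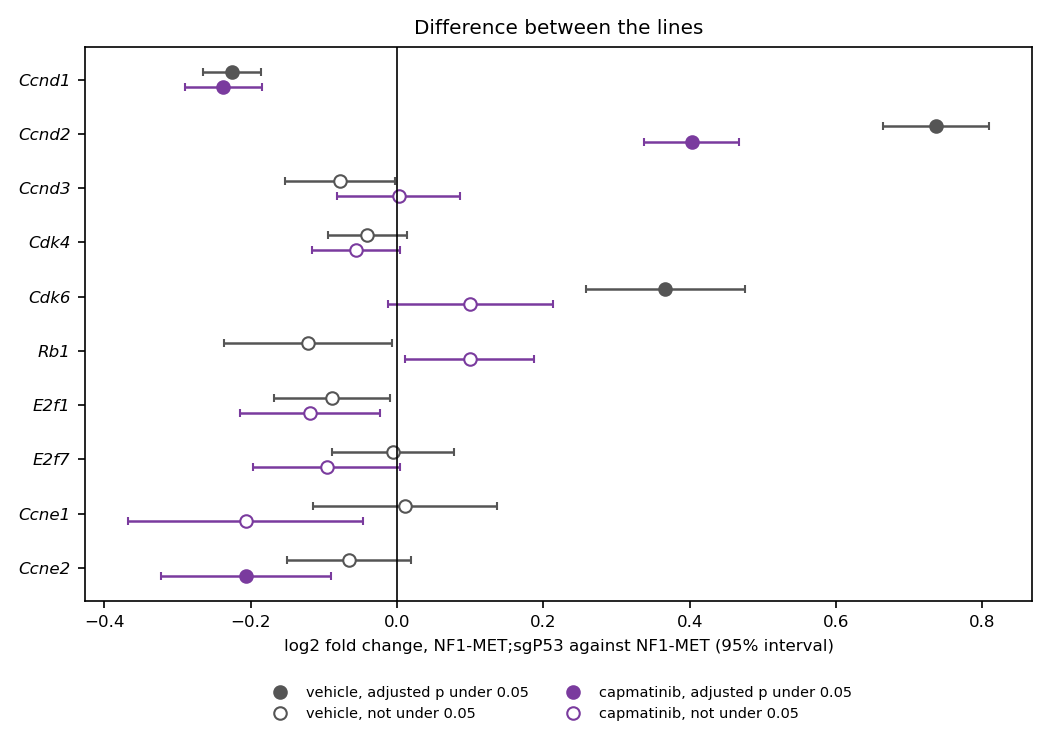
Log2 fold change between the lines, NF1-MET;sgP53 against NF1-MET, for the 10 genes with vehicle and with capmatinib, with 95% intervals from edgeR and 2 libraries per group. Filled points have an adjusted p under 0.05 over all genes tested. *Ccnd2* is highest in each treatment at 0.74 and 0.40, *Ccnd1* lies at -0.23 and -0.24, and the other genes lie closer to 0, apart from *Cdk6* at 0.37 with vehicle.

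Among the other genes of the pathway, the line difference was marked for *Cdkn1a*, which was lower in the sgP53 line by a log2 fold change of -1.69 with vehicle (SE 0.0439, adjusted p = 3.16e-16, edgeR) and -1.95 with capmatinib (SE 0.0536, adjusted p = 1.39e-13). *Cdkn2b* was lower with vehicle (-0.41) and *Cdkn1b* higher (0.13), and with capmatinib *Cdkn2a* (0.34) and *Cdkn2c* (0.16) were higher. In all, 3 inhibitors were higher and 2 lower with vehicle, and 3 higher and 1 lower with capmatinib. The inhibitors called higher with vehicle were 0 by DESeq2's Wald test and without NF1-MET vehicle replicate 2, and 1 with library totals or without NF1-MET vehicle replicate 1 or sgP53 vehicle replicate 1. Those called higher with capmatinib were 1 by the Wald test and 1 with no filter. Of the partners, 1 was higher (*Ccna2*, 0.08) and 2 lower (*E2f2*, -0.30, and *E2f8*, -0.11) with vehicle, and 0 higher and 2 lower (*E2f6*, -0.22, and *Rbl1*, -0.15) with capmatinib. With library totals and with DESeq2's Wald test 0 partners were called in either direction in each treatment, and the same held with vehicle without NF1-MET replicate 1. The partners called higher with vehicle were 2 without sgP53 replicate 1 and 0 without sgP53 replicate 2, and those called lower were 4 with a replicate block. With capmatinib 1 was called higher without sgP53 replicate 1, and 1 was called lower without NF1-MET replicate 1, NF1-MET replicate 2 or sgP53 replicate 1. Of the E2F targets, 7 were higher with vehicle, led by *Ung* (0.23), *Gins2* (0.16) and *Tk1* (0.16), and 5 lower with capmatinib, led by *Mcm6* (-0.17), *Rrm2* (-0.16) and *Uhrf1* (-0.11). These counts were 2 and 0 with library totals, and 4 and 2 by DESeq2's Wald test. The count with vehicle was 11 with all 8 libraries in 1 model, and that with capmatinib was 2 with no filter. With vehicle, 1 target was called without NF1-MET replicate 1 and 4 without NF1-MET replicate 2 or sgP53 replicate 2. With capmatinib, 3 were called without NF1-MET replicate 2 and 2 without sgP53 replicate 1. Of the mitosis genes, 4 were higher with vehicle, led by *Cdc20* (0.16), *Ccnb2* (0.14) and *Ccnb1* (0.09), and 3 with capmatinib (*Plk1*, 0.15, *Cdc20*, 0.15, and *Bub1*, 0.13), and 2 and 0 with library totals, 1 and 0 by the Wald test and 2 and 1 with no filter. With vehicle, 2 mitosis genes were called without NF1-MET replicate 1, sgP53 replicate 1 or sgP53 replicate 2, and with capmatinib 1 was called without NF1-MET replicate 2.

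Whether the response to capmatinib differed between the lines was tested as the interaction of line and treatment over the 8 libraries, in which 9.71% of all genes were called (3.85% higher, 5.86% lower) and the median of all genes was -0.03. Of the 10 members 2 were called. The rise of *Ccnd2* was smaller in the sgP53 line by a log2 difference of -0.35 (95% interval -0.45 to -0.25, adjusted p = 1.19e-05, edgeR), with a response of 0.43 beside 0.77. For *Cdk6* the difference was -0.29 (95% interval -0.45 to -0.13, adjusted p = 0.0170), with a response of -0.27 beside 0.00. With library totals the differences were -0.27 and -0.21 and neither was called (adjusted p = 0.245 and 0.602). By DESeq2's Wald test the difference of *Cdk6* was -0.27 and was not called (adjusted p = 0.0928). The call of *Cdk6* was also lost when NF1-MET vehicle replicate 2, NF1-MET capmatinib replicate 1, sgP53 vehicle replicate 2 or sgP53 capmatinib replicate 2 was left out, with adjusted p of 0.105, 0.0824, 0.0831 and 0.156.

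For *Rb1* the response in the sgP53 line was larger by 0.20 (95% interval 0.06 to 0.34), which was not called (adjusted p = 0.0628, edgeR). It was called without NF1-MET vehicle replicate 2 (0.25, adjusted p = 0.0465), with size factors from DESeq2 (0.21, adjusted p = 0.0457), with no filter (0.23, adjusted p = 0.0458) and without *Gm42418* (0.24, adjusted p = 0.0239). Of the other members, *Cdk4* (-0.04, 95% interval -0.11 to 0.04), *E2f1* (-0.05, -0.17 to 0.07), *E2f7* (-0.11, -0.24 to 0.02), *Ccnd3* (0.06, -0.05 to 0.17) and *Ccne2* (-0.16, -0.31 to -0.01) were not called. Of the E2F targets 11 of 25 fell further in the sgP53 line, led by *Ung* (-0.52), *Gins2* (-0.32) and *Cdt1* (-0.24), and 0 rose relative to NF1-MET. With library totals that count was 0, and with DESeq2's Wald test it was 5. When NF1-MET vehicle replicate 1 or sgP53 capmatinib replicate 2 was left out, it was 5 as well. Of the 12 mitosis genes 0 were called with edgeR and 0 with DESeq2's Wald test, 1 was called higher without *Gm42418*, and 2 had an unadjusted p under 0.05. Of the inhibitors, the difference was 0.59 for *Cdkn2a* (adjusted p = 0.00997), 0.45 for *Cdkn2b* (adjusted p = 5.25e-06) and -0.28 for *Cdkn1a* (adjusted p = 0.0148). *Rbl1* was the 1 partner called (-0.20, adjusted p = 0.0174), and 0 were called by DESeq2's Wald test, with library totals, without *Gm42418*, or without NF1-MET capmatinib replicate 1, sgP53 vehicle replicate 1, sgP53 capmatinib replicate 1 or sgP53 capmatinib replicate 2. Only 1 inhibitor was called higher without NF1-MET vehicle replicate 1, NF1-MET capmatinib replicate 2 or sgP53 vehicle replicate 2, and 0 were called lower with library totals, by DESeq2's Wald test, or without NF1-MET vehicle replicate 2, sgP53 vehicle replicate 1 or sgP53 capmatinib replicate 1.

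To describe how particular each pattern over the 8 libraries was, the log2 level of a member was correlated with that of each of the 8658 genes that averaged 10 CPM or more. These correlations mostly follow the 2 treatments and the 2 lines and are given without a test. The genes most like *Ccnd1* were *Hmga2*, *Tnfrsf12a* and *Rcc2* (r of at least 0.999), and 2004 genes exceeded 0.95. Those most like *Ccnd2*, which was higher with capmatinib and in the sgP53 line, were *Dkk3*, *Fbln2* and *Celf2* (r = 0.995, 0.995 and 0.994), and 79 genes exceeded 0.95. For *Cdk6*, which was high in the sgP53 line with vehicle, they were *Tomm40l*, *Il1rl1* and *Oxsr1* (r = 0.961, 0.960 and 0.951), the 3 genes above 0.95.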

How the data were processed

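The authors sequenced RNA of both lines under vehicle or capmatinib, with 2 libraries per group. As the paper's methods and the labels give it, poly(A) libraries were read from both ends (bcl2fastq 1.9.0, FastQC 0.11.7), trimmed with Trim Galore 0.4.2 and mapped to mm10 with STAR 2.5.2b. The deposited values were raw counts per gene from the authors, neither normalized nor filtered, and 0 numeric columns were left unused. The annotation release and the strand setting are not given in the sources used here. Symbols and positions were matched in GENCODE M21 (50376 of 50600 identifiers).

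Tests were run in R 4.3.3 with edgeR 4.0.16 (limma 3.58.1), and DESeq2 1.42.0 served as an alternative. A gene entered with 10 or more counts in 2 or more of all libraries, and a count above 0 in 2 or more libraries of the comparison. TMM factors were set within each comparison, the original quasi-likelihood F-test of edgeR was run on the whole table, and p-values were adjusted by the Benjamini-Hochberg procedure over all genes tested. Levels are CPM with TMM factors over 8 libraries, divided for comparisons between genes by the length of merged exons. The interaction used all 8 libraries and the other tests the 4 compared. Replicates differed by 1.56 to 1.83 times sampling noise (median squared difference over genes), so no pair was 1 library given again. Opposite-strand and near-identical genes were searched with GENCODE M21 and blastn 2.17.0.

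The text names the 10 members, *Trp53*, and of each pathway list the 3 called genes with the largest change and a mean of at least 1 CPM. Outside this rule, cell markers and genes with shared sequence are named, and a few list genes chosen after their values were seen, as the text says there. For 3 members, the 3 most correlated genes over the libraries are named. The members, lists and tests were chosen with earlier results of these data known. The alternatives were library totals, the size factors and the Wald test of DESeq2, the bias-adjusted form of the edgeR test, no filter and a stricter filter, a replicate block, 1 model of all libraries, omission of *Gm42418*, and each library left out in turn.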

Additional observations from a re-analysis of the deposited data

Results flagged for a closer look

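The responses to capmatinib of 2 of the 10 genes differed between the lines by the interaction test (edgeR), in which 9.71% of all genes were called. For *Ccnd2* the log2 response in the NF1-MET;sgP53 line minus that in NF1-MET was -0.35 (adjusted p = 1.19e-05), with both capmatinib libraries above both vehicle libraries in each line. For *Cdk6* it was -0.29 (adjusted p = 0.0170), with levels of 37.1 and 39.3 CPM falling to 32.8 and 30.7 CPM in NF1-MET;sgP53 and overlapping levels in NF1-MET. Neither was called with library totals (adjusted p = 0.245 for *Ccnd2* and 0.602 for *Cdk6*). *Cdk6* was also not called by DESeq2's Wald test (adjusted p = 0.0928) or when any of 4 single libraries was left out (adjusted p = 0.0824 to 0.156). Groups of 2 libraries were not searched for a library far from the others.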

How the results depend on the processing

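The counts of members lowered (6 in NF1-MET, 7 in the sgP53 line) and raised (2 and 2) by capmatinib stayed within 1.5 times under every alternative, as did the counts of 25 E2F targets and 12 mitosis genes lowered. Scaling to library totals shifted the median of all genes by -0.18 with the drug in NF1-MET, by -0.12 in the sgP53 line and by 0.11 between the lines with capmatinib, moved the share of higher calls from 50.5% to 35.5%, from 50.6% to 39.8%, from 47.1% to 63.3% (lines, vehicle), from 48.4% to 80.6% (lines, capmatinib) and from 39.7% to 61.0% (interaction), and turned *Cdk6* in NF1-MET to -0.18. With it, members lower in the sgP53 line than in NF1-MET were 0 with vehicle (1 in the report) and 0 with capmatinib (2). Members whose response to capmatinib was lower in the sgP53 line (interaction) were 0 (2). Between the lines under capmatinib, members lower in the sgP53 line were 1 by DESeq2's Wald test and 1 without the filter. Members whose response was lower in the sgP53 line (interaction) were 1 by the Wald test. Members higher in the interaction were 1 (*Rb1*) in place of 0 with size factors from DESeq2, with no filter and without *Gm42418*. With each library left out in turn, where the lone library of a group is assumed to vary like the others, members lower in the sgP53 line than in NF1-MET were 1 to 2 with vehicle and 1 to 3 with capmatinib, members lower in the interaction 1 to 2, and members higher in the interaction 0 to 1 (*Rb1*, without NF1-MET vehicle replicate 2). *E2f1* was called lower between the lines with vehicle without NF1-MET vehicle replicate 2 (-0.14), and with capmatinib without sgP53 capmatinib replicate 2 (-0.16). *Ccnd3* was called higher with capmatinib in the sgP53 line with the stricter filter (0.08) and without its capmatinib replicate 1 (0.11). The genes called in all went from 3355 to 1933 by the Wald test and 2023 with library totals between the lines with vehicle, from 1778 to 870 and 666 with capmatinib, where no filter gave 1070, and from 1407 to 894 and 315 in the interaction. Same-numbered replicates deviated together only weakly (r = -0.05 to 0.10 over the 6 pairs of groups, 14497 genes). Sampling noise in single genes lowers such an r, so it does not settle whether the number pairs them. The replicate block changed no member's call and gave 10141, 9866, 3994, 1777 and 1524 called genes. The causes of these changes were not tested. With 2 libraries a group, a difference that was not called is not shown to be absent.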
